A study of Mus musculus with 12 samples.

Results

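The nuclear receptors were read in B16-F10 melanoma tumors grown in obese and nonobese male mice. Their genes were taken as the rows of the deposited count table for a fixed list of 47 mouse nuclear receptor genes, of 23420 genes in the table. B16-F10 is a transplantable melanoma line of C57BL/6 origin, and its cells had been implanted under the skin of the right flank of male C57BL/6J mice. The mice, 4 to 5 weeks old at the start, had eaten a Western diet with added cholesterol (obese) or a matching control diet (nonobese) for about 15 weeks. After tumors became palpable, the mice of each diet received a monoclonal antibody against PD-1 (clone 29F.1A12) or the isotype control antibody (clone 2A3), both at 10 mg/kg, and tissue was sampled in the morning. The 4 groups held 3 tumors each, from 12 tumors in all. All groups carried the same tumor line, which is a single implanted line, and no female tumor was among the 12. Replicate tumors carried only a number in the labels, and nothing ties tumors of the same number to a shared cage or day. The study asked how obesity and estrogens bear on the response to PD-1 blockade, so the receptor genes for estrogens are given here whatever their values.

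Nuclear receptors are transcription factors that share a DNA-binding domain with zinc fingers and, in most members, a pocket for a small lipophilic ligand such as a steroid, retinoic acid, thyroid hormone, vitamin D, a fatty acid or an oxysterol. Steroid receptors wait in chaperone complexes and act mainly as homodimers, while receptors for retinoids, vitamin D, fatty acids and oxysterols sit on DNA as heterodimers with a retinoid X receptor (RXR). Without ligand many of the latter recruit corepressors, and ligand exchanges these for coactivators. Other members have no known physiological ligand or are set mainly by how much of them is made, as for the NR4A group, which is induced within minutes to hours by growth factors, cAMP and T cell receptor signals. In melanocytes the retinoid, vitamin D and NR4A receptors are known, among other roles, for their part in differentiation and in the response to ultraviolet light.

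The table held raw read counts per gene, with totals of 14022929 to 33871843 counts over the 12 tumors. Levels are given as CPM, a gene's count relative to the TMM-scaled total of its tumor, and as CPM per kilobase of exon where genes are set side by side. Differences were tested with edgeR's quasi-likelihood F-test in a model of the 4 groups over the 13095 genes that passed a filter on low counts. A gene was counted as changed at an unadjusted P below 0.05, the P threshold of the study, or by the study's full rule, which also asks for a fold change above 2. Such a gene is called below. The Benjamini-Hochberg FDR over all 13095 genes is given with the receptors' values and stayed above 0.05 for every receptor in this fit. Genes of the target and partner lists are in places given by their log2 difference alone. The FDR of those in edgeR ran from 0.0952 (Tgm2, diet with anti–PD-1) to 0.924 (Tgm2 under anti–PD-1 in nonobese mice). Fold changes are log2 values with their standard error (SE). The labels give the tumors of a group as separate samples and say no more of how they were handled, so P values measure the spread between these tumors, which may in part be technical. The tissue was bulk tumor, in which fewer cells of a type and less RNA per cell cannot be told apart. The 10 melanoma marker genes all had counts and summed to between 26515 and 32608 CPM over the 12 tumors, so every tumor carried its labeled cell type. Markers of surrounding tissue differed more widely. The summed skeletal muscle markers ran from 24.7 to 679.9 CPM and the summed fibroblast markers from 239 to 2909.9 CPM, with wide ranges inside single groups.

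Of the 47 receptor genes, 33 (70.2%) were detected by the rule of 10 or more counts summed over the 12 tumors, against 65.4% of all genes in the table. A rule of at least 3 counts in at least 3 tumors also gave 33. Among the 14 others, Nr0b1, Nr2e1, Hnf4a, Hnf4g and Pgr had 0 counts in every tumor. A floor of 3 counts over the 272866566 counts of all tumors allows each of these 5 a mean level of up to 0.011 CPM, for counting error only. The remaining 9 had 1 to 9 counts in all: Nr0b2, Rxrg, Esrrg, Esrrb, Esr2, Nr2e3, Nr1h5, Rorb and Nr1i3. The undetected set thus held the progesterone receptor, estrogen receptor beta, both HNF4 receptors of liver and gut, the photoreceptor-type receptor Nr2e3 and the xenobiotic receptor Nr1i3 (CAR). Of the 33 detected genes, 30 also passed the filter for testing. The 3 that did not were Nr1i2 (59 counts), the pregnane X receptor, Nr5a2 (71 counts), known as LRH-1, and Thrb (77 counts), the beta receptor for thyroid hormone.

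On the scale of mean CPM per kilobase over the 12 tumors, the tested receptors spanned from 26.6 ± 2.2 (SD, n = 12) for Nr1h2 to 0.0692 ± 0.0376 for Nr3c2. Nr1h2 encodes the ubiquitous oxysterol receptor LXR beta. It was followed by Nr4a1 at 23.2 ± 2.66, an inducible orphan receptor also known as NUR77, and by the RXR partners Rxra at 21.2 ± 2.23 and Rxrb at 20.9 ± 1.88. The next 3 were Ppard at 14.7 ± 1.23, a fatty acid receptor, Rarg at 14.4 ± 2.37, a retinoic acid receptor, and Nr4a3 at 14.3 ± 3.53, known as NOR1. Nr2f6, an orphan receptor, Rara, a retinoic acid receptor, and Esrra, the estrogen-related receptor alpha, closed the first 10 at 10.2 ± 0.966, 9.35 ± 1.14 and 9.24 ± 1.28. Several neighbours in this order lay closer together than their spread over tumors, among them Rxra and Rxrb, Ppard with Rarg and Nr4a3, and Rara and Esrra. The median of the tested genes with an annotated length was 5.62 CPM per kilobase, and 13 of the 30 tested receptors lay above it.

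The receptors that varied least were mostly at a high level. The coefficient of variation over the 12 tumors was 8.28% for Nr1h2, 8.36% for Ppard, 8.98% for Rxrb and 9.09% for the glucocorticoid receptor gene Nr3c1. At the other end stood Nr1h3 (56.4%), which encodes LXR alpha, Nr3c2 (54.3%), the mineralocorticoid receptor, Pparg (47.7%), the adipocyte-type PPAR, Vdr (38.7%), the vitamin D receptor, and Ppara (37.3%), all below 1 CPM per kilobase. The median over the tested receptors was 16.7%, against 15.0% over all tested genes. These values rested on few counts. Vdr rested on 3 to 65 counts per tumor, Pparg on 8 to 71, Ppara on 11 to 70 and Nr1h3 on 15 to 88.

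**Figure D1:**
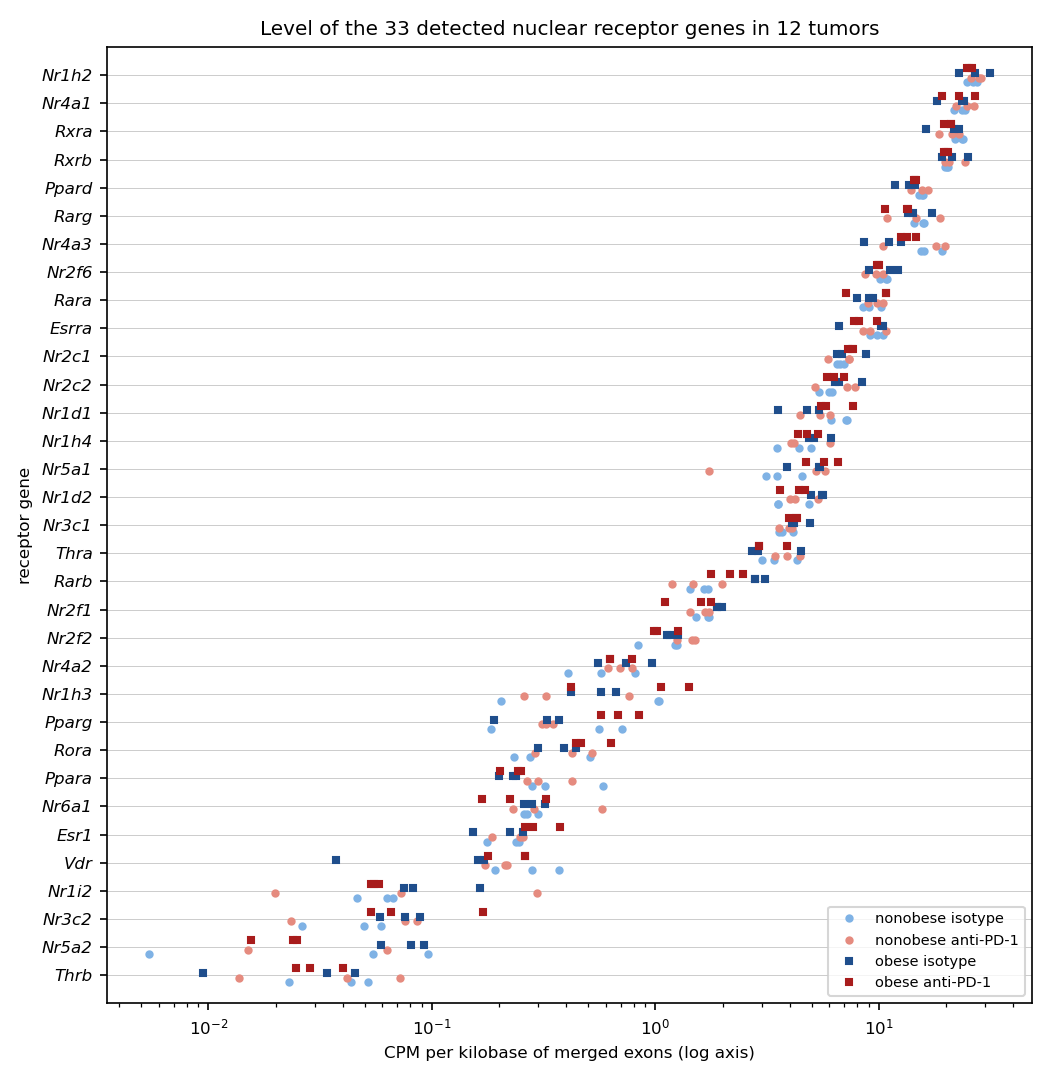
Level of each of the 33 detected receptor genes (vertical axis) in CPM per kilobase of merged exons on a log axis, with 1 point per tumor colored by group and tumors at 0 not drawn. The points of a gene mostly lie close together from Nr1h2 down to Nr3c1, and spread widely from Nr1h3 downward.

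In some subfamilies 1 paralog held nearly the whole level, and in others the level was divided. Each share below is a member's part of the subfamily's summed CPM per kilobase, averaged over 12 tumors. Ppard made up 95.2% of the PPAR level, with Pparg at 2.92% and Ppara at 1.89%. Nr1h2 held 97.5% of the LXR level, Thra 99.0% of the thyroid hormone receptor level, Esrra 99.9% of the estrogen-related receptor level and Esr1 98.2% of the estrogen receptor level. Nr2f6 held 78.1% of its orphan trio with Nr2f1 and Nr2f2. The RXR level was divided between Rxra (50.3%) and Rxrb (49.6%), with Rxrg at 0.0375%. Among retinoic acid receptors Rarg held 55.6%, Rara 36.4% and Rarb 8.0%, and in the NR4A group Nr4a1 held 61.1%, Nr4a3 37.1% and Nr4a2 1.81%. Of the REV-ERB pair, heme-binding repressors of the circadian clock, Nr1d1 held 55.6%, and of the orphan pair Nr2c1 and Nr2c2 the first held 52.3%. The Nr1d1 share had means of 63.2% in nonobese isotype, 53.9% in nonobese anti–PD-1, 45.6% in obese isotype and 59.9% in obese anti–PD-1 tumors.

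**Figure D2:**
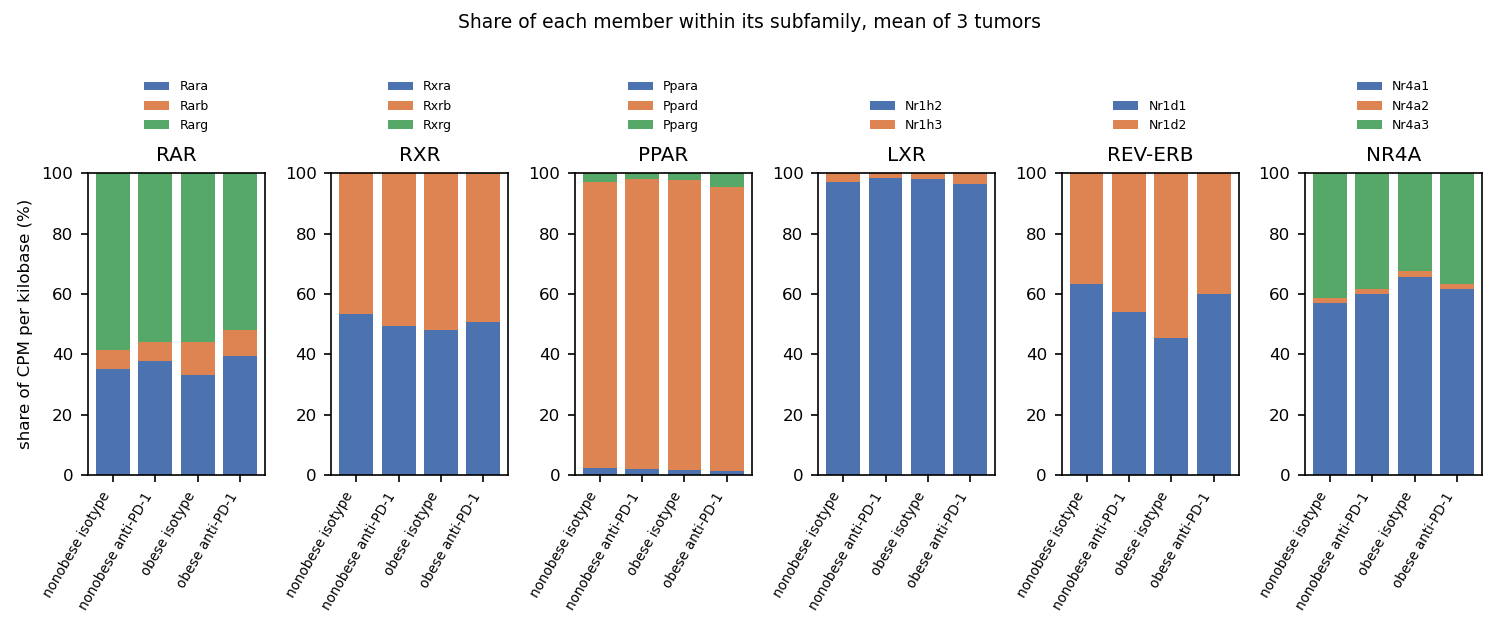
Stacked bars of the mean share (percent of summed CPM per kilobase, 3 tumors per bar) of each member of 6 subfamilies in the 4 groups. PPAR and LXR are almost entirely Ppard and Nr1h2, while the Nr1d1 part of REV-ERB runs from 45.6% to 63.2%.

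Between 0 and 7 of the 30 tested receptors were called in each comparison. For anti–PD-1 against isotype in nonobese mice, 0 of 30 receptors had an unadjusted P below 0.05 by edgeR, against 5.23% of all tested genes, and DESeq2 also gave 0. In obese mice anti–PD-1 gave 4 such receptors (background 7.57%), Pparg and Nr1d1 higher and Rarb and Nr1d2 lower. Obese against nonobese gave 7 with the isotype antibody (background 13.3%), Rarb and Nr1d2 higher and Nr1d1, Nr4a3, Vdr, Ppara and Ppard lower. With anti–PD-1 the diet comparison gave 2 (background 10.3%), Pparg and Rarb, both higher in obese mice. The difference between the responses of the 2 diets gave 3 (background 12.9%), Nr1d1 and Pparg above 0 (background 7.01%) and Nr1d2 below (5.87%), and the diet difference averaged over both antibodies gave 3 (background 10.4%), Rarb, Nr4a3 and Ppara. These comparisons share tumors. The obese isotype tumors, for example, enter both the anti–PD-1 comparison in obese mice and the diet comparison with isotype. Single tumors moved these counts by edgeR. The nonobese anti–PD-1 count rose to 4 without nonobese isotype replicate 1 and was 1 without any of the nonobese anti–PD-1 tumors or obese isotype replicate 2. The obese count fell to 0 without obese isotype replicate 2 and was 2 without nonobese anti–PD-1 replicate 1, nonobese isotype replicate 2 or 3, obese anti–PD-1 replicate 1 or 3 or obese isotype replicate 1. The diet count with isotype fell to 3 without obese isotype replicate 2 and to 4 without nonobese isotype replicate 2. With anti–PD-1 the diet count went to 6 without nonobese anti–PD-1 replicate 3, to 0 without nonobese anti–PD-1 replicate 2 and to 1 without nonobese anti–PD-1 replicate 1 or obese anti–PD-1 replicate 2 or 3. The interaction count was 1 without nonobese isotype replicate 2, and the averaged diet count was 6 without nonobese anti–PD-1 replicate 3 and 5 without nonobese isotype replicate 1 or obese isotype replicate 1.

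With the fold change above 2 added, the only calls were Pparg under anti–PD-1 in obese mice (background 2.44%), in the diet comparison with anti–PD-1 (4.25%) and in the difference between responses (5.76%), and Vdr in the diet comparison with isotype (1.37%). The nonobese anti–PD-1 comparison (2.42%) and the diet average (0.512%) had none by edgeR. No receptor reached an FDR below 0.05 by edgeR, in comparisons with 0 to 7 receptors at an unadjusted P below 0.05 and with backgrounds of 0.382% for diet with anti–PD-1, 0.183% for the diet average and 0% for the others. DESeq2 gave Rarb an FDR below 0.05 in the diet comparison with isotype (0.00928) and in the diet average (0.00336), and no other receptor. Leaving out nonobese anti–PD-1 replicate 3 brought Rarb and Nr4a3 to an FDR below 0.05 in the diet average by edgeR, with 0.0218 the lower of the 2.

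The median log2 fold change of the 30 receptors lay between -0.03 and 0.05 over the 6 comparisons, where that of all tested genes lay between -0.04 and 0.02. The median size without sign was slightly above that of all genes each time, at 0.21 against 0.18 in the diet comparison with isotype and 0.16 against 0.14 for anti–PD-1 in obese mice. Groups that did not overlap were found for 1 receptor under anti–PD-1 in nonobese mice (background 11.2%), 7 in obese mice (12.4%), 9 in the diet comparison with isotype (19.4%), 3 with anti–PD-1 (13.6%) and 1 in the comparison of the 6 obese with the 6 nonobese tumors (1.06%).

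**Figure D3:**
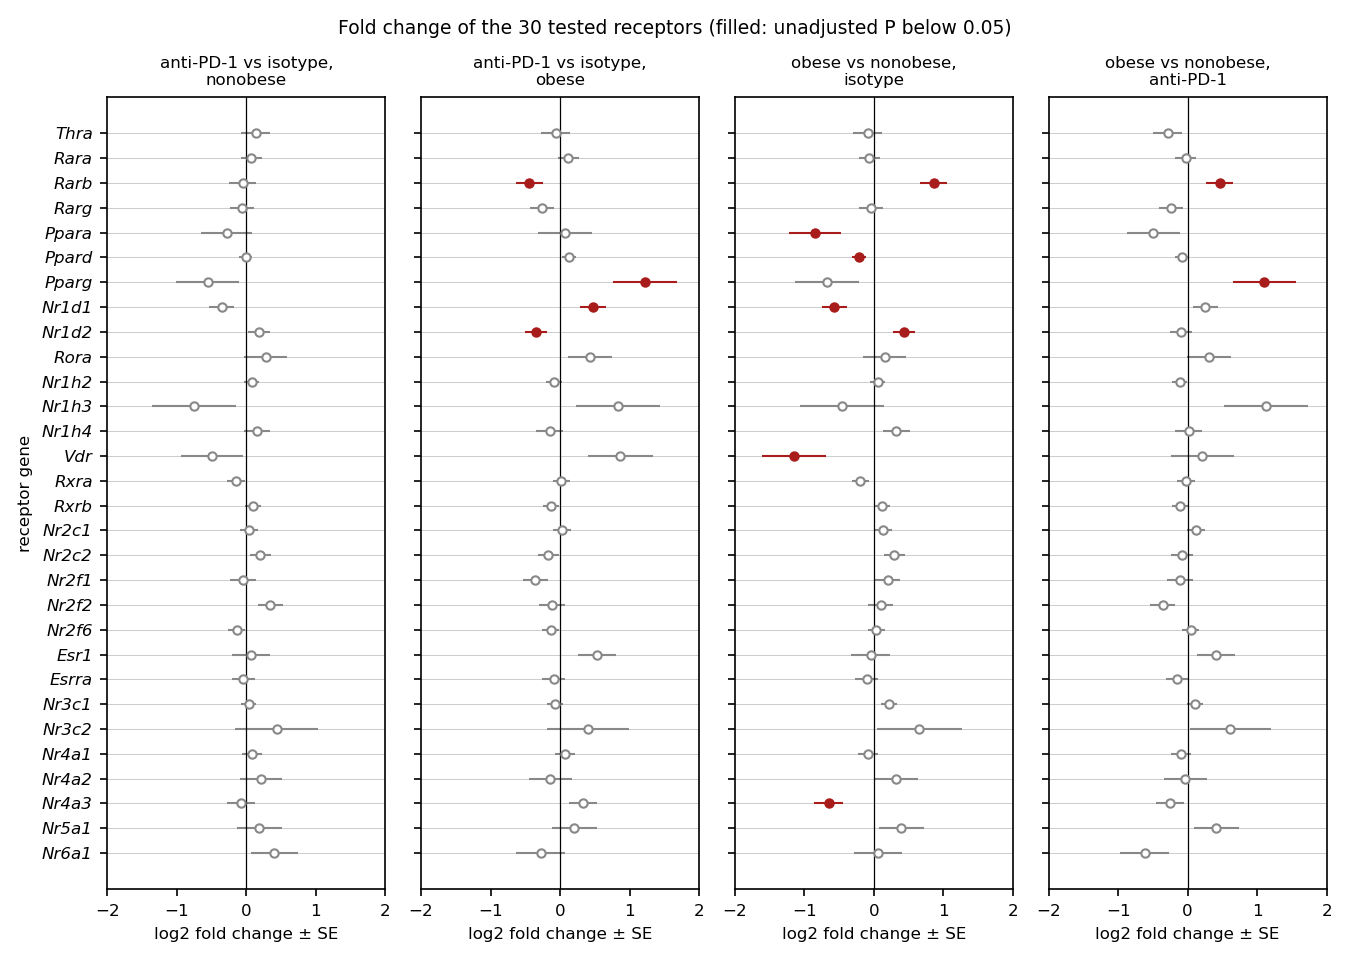
Log2 fold change with its standard error (horizontal axis) of the 30 tested receptors in 4 comparisons, filled red where the unadjusted P from edgeR was below 0.05. Most receptors sit near 0, with Rarb to the right and Vdr, Ppara and Nr4a3 to the left in the isotype diet comparison, and Pparg to the right in both panels that hold the obese anti–PD-1 tumors.

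Among the retinoid receptors, Rarb was higher in tumors of obese mice. Rarb encodes retinoic acid receptor beta, a tumor suppressor candidate in many cancers whose own gene is a classic retinoic acid target. It lies at chr14:16430839-16819156 on the minus strand (GRCm38). Rarb stood at 7.55, 8.70 and 9.09 CPM in the nonobese isotype tumors, 7.78, 6.28 and 10.4 CPM in the nonobese anti–PD-1 tumors, 16.4, 14.8 and 14.8 CPM in the obese isotype tumors and 11.4, 13 and 9.31 CPM in the obese anti–PD-1 tumors. The 3 obese isotype tumors were above all 9 other tumors, and the obese anti–PD-1 tumors lay between them and the nonobese isotype tumors. By edgeR the diet difference with isotype was called (log2 0.86, SE 0.19, FDR = 0.141), as was the average over both antibodies (log2 0.66, SE 0.14, FDR = 0.0975). Both calls were kept in every alternative setting and in each of the 12 fits without a tumor, with log2 values of 0.78 to 0.90 and 0.58 to 0.78 over those 12 fits.

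With anti–PD-1 the nonobese and obese groups overlapped in Rarb, through nonobese replicate 3 at 10.4 CPM, and the call of edgeR was weaker (log2 0.46, SE 0.20, FDR = 0.422). That call was lost at 0.43 without nonobese anti–PD-1 replicate 1, 0.30 without nonobese anti–PD-1 replicate 2, 0.46 without obese anti–PD-1 replicate 1 and 0.33 without obese anti–PD-1 replicate 2, and in a fit of only the 6 tumors compared. Anti–PD-1 in obese mice went with less Rarb in all 3 tumors (log2 -0.45, SE 0.19, FDR = 0.626). This second call passed the threshold in only 4 of 12 fits without a tumor (nonobese anti–PD-1 replicates 2 and 3, nonobese isotype replicate 1 and obese anti–PD-1 replicate 2) and was as small as -0.32 without obese anti–PD-1 replicate 3. It was also lost when 10 counts were required in every tumor, and with a block on the replicate number. In share of the summed retinoic acid receptor level, Rarb held 10.5%, 10.6% and 11.5% in the obese isotype tumors and 5.20%, 6.24% and 7.01% in the nonobese isotype tumors. Rarb shares 34.1% of its exon bases with Top2b on the opposite strand, and the strand setting of the counting was not given in the sources used here. Top2b stood at 97.2, 73.8 and 78.2 CPM in the nonobese isotype tumors, 88.6, 96.9 and 86.0 CPM in the nonobese anti–PD-1 tumors, 79.2, 104 and 110.3 CPM in the obese isotype tumors and 91.3, 79.2 and 76.8 CPM in the obese anti–PD-1 tumors, with groups that overlapped and no call between diets with isotype (log2 0.23, FDR = 0.475 by edgeR). The summed markers of fibroblasts were 655 to 2909.9 CPM in the nonobese isotype tumors, 309 to 606 CPM in the nonobese anti–PD-1 tumors, 239 to 1179.7 CPM in the obese isotype tumors and 460.0 to 1965 CPM in the obese anti–PD-1 tumors, and their part in the Rarb values was not tested.

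A start site window of Rarb holds the element for which this gene is known in textbooks, and it is shown because Rarb was the receptor with the smallest P between diets. The 250 bases before this start site are given from RefSeq (GRCm38.p6), 5′ to 3′ on the minus strand at chr14:16575477-16575726, with the match in capitals. The site lies inside the gene span given above, which begins on the minus strand at 16819156. Which start site these tumors used was not tested.

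Rarb: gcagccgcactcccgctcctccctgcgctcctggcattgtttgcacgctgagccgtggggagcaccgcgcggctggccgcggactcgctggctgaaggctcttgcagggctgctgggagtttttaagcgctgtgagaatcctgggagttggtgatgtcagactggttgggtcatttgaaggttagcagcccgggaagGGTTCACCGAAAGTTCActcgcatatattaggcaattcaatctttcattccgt

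The motif searched was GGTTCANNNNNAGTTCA, a pair of direct repeats with a spacer of 5 bases, on both strands. The match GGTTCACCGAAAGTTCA lies 53 to 37 bases before this start site. It was in 2 of 32851 RefSeq windows of 250 bases before a start site (0.00609%), and in 1 of the 64 windows of 43 receptors. A match is a description of these letters and says nothing of binding in these tumors.

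The other retinoid receptors were not called in any of the 6 comparisons by edgeR. Rara ran from 31.1 to 47.2 CPM, Rarg from 45.3 to 80.2 CPM, Rxra from 88.4 to 131 CPM and Rxrb from 76.4 to 99.8 CPM over all 12 tumors. Of 10 tested targets of retinoic acid, with Rarb among them, 5 were lower under anti–PD-1 in nonobese mice at an unadjusted P below 0.05 (background lower 3.59%, list median -0.88 against 0.02 for all genes). Among these were Dhrs3 (-0.87), which reduces retinaldehyde, Rarres2 (-1.44), the adipokine chemerin, and Tgm2 (-0.88), a transglutaminase. In obese mice 1 was higher (background 4.3%), Tgm2 (log2 1.30), and 1 was lower (3.27%), Rarb itself. With anti–PD-1, 6 of 10 were higher in obese than in nonobese mice (background higher 5.71%), Rarb among them. The smallest P values were those of Tgm2 (1.73) and Rarres2 (1.92). Averaged over antibodies, 3 were higher (background 5.21%), Rarb, Rarres2 (0.83) and Tgm2 (0.64). The Rarres2 call was lost in 5 of 12 fits without a tumor and the Tgm2 call in 8 of 12 and with DESeq2. With isotype, Rarb was the single member called. Tgm2 and Rarres2 are also made by macrophages, fibroblasts or fat. All 10 macrophage markers had counts, and the summed macrophage markers were 208 to 459.6 CPM in the nonobese isotype tumors, 145 to 191 CPM in the nonobese anti–PD-1 tumors, 152 to 294 CPM in the obese isotype tumors and 221 to 496 CPM in the obese anti–PD-1 tumors. The part of these cells in the target genes was not tested.

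Of the fatty acid receptors, Pparg was the one that differed after anti–PD-1. Pparg encodes PPAR gamma, the main driver of adipocyte differentiation, which also acts in macrophages, and lies at chr6:115360951-115490399 on the plus strand. Pparg stood at 0.546, 2.09 and 1.65 CPM in the nonobese isotype tumors, 0.915, 0.959 and 1.03 CPM in the nonobese anti–PD-1 tumors, 0.967, 0.560 and 1.1 CPM in the obese isotype tumors and 1.69, 2.02 and 2.51 CPM in the obese anti–PD-1 tumors. The 3 obese anti–PD-1 tumors lay above the 6 tumors of the obese isotype and nonobese anti–PD-1 groups, while the nonobese isotype tumors spread from 0.546 CPM, the lowest value of the 12, to 2.09 CPM and overlapped with them. Anti–PD-1 in obese mice raised Pparg by edgeR's unadjusted P (log2 1.22, SE 0.46, FDR = 0.53). This call was lost at 1.07 without obese anti–PD-1 replicate 3 and 1.02 without obese isotype replicate 2. In nonobese mice the value was not called (log2 -0.55, FDR = 0.929), and the difference between the responses was (log2 1.78, SE 0.64, FDR = 0.271), but not without nonobese isotype replicate 2 (1.38).

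With anti–PD-1, Pparg was higher in obese than in nonobese mice (log2 1.1, SE 0.45, FDR = 0.405 by edgeR), a call lost at 1.07 without nonobese anti–PD-1 replicate 1, 1.09 without nonobese anti–PD-1 replicate 2, 1.12 without obese anti–PD-1 replicate 2 and 0.94 without obese anti–PD-1 replicate 3. With isotype the diets overlapped (log2 -0.68, FDR = 0.525 by edgeR). Markers of fat cells and of other cell types were called in the comparisons that called Pparg. All 10 adipocyte marker genes had counts in the table, none was at 0 in every tumor, and their sum was 94.9 to 115 CPM in the nonobese isotype tumors, 65.6 to 96.4 CPM in the nonobese anti–PD-1 tumors, 72.5 to 78.1 CPM in the obese isotype tumors and 106 to 154 CPM in the obese anti–PD-1 tumors, with 66.9% of it from Pnpla2, a lipase gene used widely outside fat. The adipocyte hormone gene Adipoq stood at 0.867, 2.82 and 1.53 CPM in the nonobese isotype tumors, 0.152, 0.309 and 0.535 CPM in the nonobese anti–PD-1 tumors, 0.379, 0.420 and 0.764 CPM in the obese isotype tumors and 3.17, 2.07 and 7.48 CPM in the obese anti–PD-1 tumors. Plin1, a coat protein of fat cell lipid droplets, stood at 0.225, 1.18 and 0.511 CPM in the nonobese isotype tumors, 0, 0.247 and 0.268 CPM in the nonobese anti–PD-1 tumors, 0.0841, 0.420 and 0.286 CPM in the obese isotype tumors and 2.12, 0.935 and 3.38 CPM in the obese anti–PD-1 tumors. In both genes the obese anti–PD-1 tumors were all above the obese isotype tumors. All 8 tested adipocyte markers were higher under anti–PD-1 in obese mice (background higher 4.3%) and 4 were lower in nonobese mice (background lower 3.59%). In the same comparison in obese mice 7 of 8 T and NK cell markers, 4 of 10 macrophage markers, 3 of 9 skeletal muscle markers and 2 of 6 dendritic cell markers were higher, and the difference between responses was above 0 for 8 of 8 adipocyte, 8 of 8 T and NK cell, 9 of 10 macrophage and 7 of 10 fibroblast markers (background 7.01%). The part of these cells in the Pparg values was not tested.

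Known PPAR targets moved in the same comparisons. Of 17 tested targets, 9 were higher and 0 lower by edgeR's unadjusted P in obese mice given anti–PD-1 (background 4.3% higher, 3.27% lower; 10 and 0 by DESeq2), and the list median was 0.99 against -0.01 for all genes. They included the lipoprotein lipase gene Lpl (log2 1.69, FDR = 0.192), Adipoq (log2 3.01, FDR = 0.192), the fatty acid carrier Fabp4 (log2 1.19, FDR = 0.192) and the fatty acid uptake receptor Cd36 (log2 1.05, FDR = 0.192). In nonobese mice 3 were lower (background 3.59%), Adipoq (-2.37), Cidec (-2.29), a lipid droplet protein, and Lpl (-0.94, and -0.55 and not called without nonobese isotype replicate 2). With anti–PD-1, 11 of 17 were higher in obese than nonobese mice (background 5.71%), with Angptl4, an inhibitor of lipoprotein lipase, at the smallest P (log2 1.69, FDR = 0.0267). With isotype, 4 were lower in obese mice (background 6.17%), Lpl (-1.19), Adipoq (-1.73), Plin4 (-1.66) and Cidec (-1.55), while Angptl4 was higher (0.74), a call lost at 0.66 without nonobese isotype replicate 3 and 0.54 without obese isotype replicate 1. Angptl4 thus went the other way from the fat cell genes in that comparison. It stood at 6.52, 7.02 and 5.85 CPM in the nonobese isotype tumors, 7.37, 4.18 and 3.79 CPM in the nonobese anti–PD-1 tumors, 13.3, 8.46 and 10.6 CPM in the obese isotype tumors and 11, 18.6 and 19.6 CPM in the obese anti–PD-1 tumors, and obese tumors were above nonobese tumors with either antibody. Over both antibodies its diet difference was 1.22 on the log2 scale (FDR = 0.0276 by edgeR). Adipoq, Plin1, Cidec and Fabp4 stand in both the target list and the adipocyte marker list, so these counts are not separate from the marker values.

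**Figure D4:**
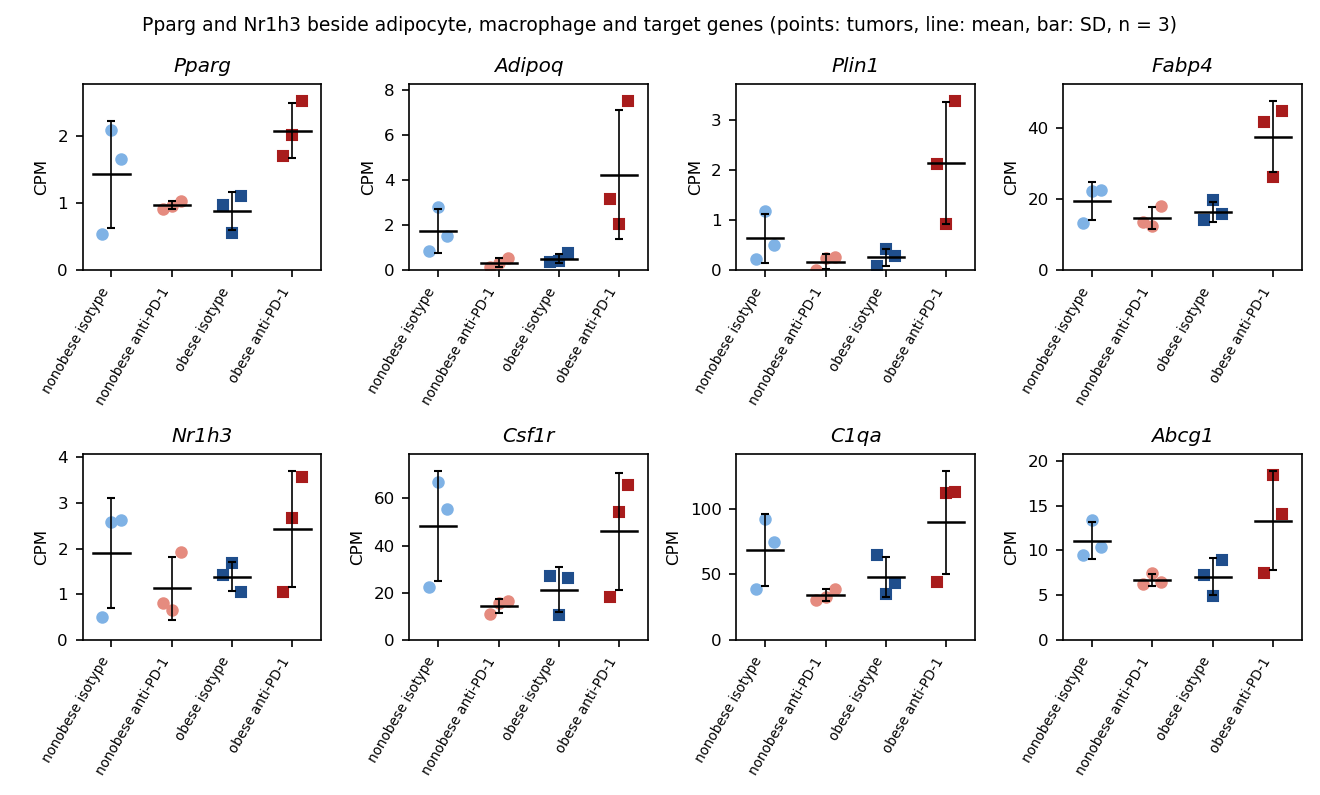
CPM (vertical axes, from 0) of Pparg and Nr1h3 beside adipocyte genes (Adipoq, Plin1, Fabp4), macrophage genes (Csf1r, C1qa) and the LXR target Abcg1, with points for tumors, lines for group means and bars for SD (n = 3). The obese anti–PD-1 group has the highest mean for Pparg and the adipocyte genes, and the 3 nonobese isotype tumors are spread widely.

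Ppara was lower in obese mice, and Ppard was slightly lower with the isotype antibody. Ppara encodes PPAR alpha, which drives fatty acid oxidation and is best known from liver, and lies at chr15:85734983-85802819 on the plus strand. Ppara stood at 2.25, 1.23 and 1.08 CPM in the nonobese isotype tumors, 1.63, 1.14 and 1.03 CPM in the nonobese anti–PD-1 tumors, 0.883, 0.909 and 0.764 CPM in the obese isotype tumors and 0.776, 0.935 and 0.958 CPM in the obese anti–PD-1 tumors. The 6 obese tumors were all below the 6 nonobese tumors, at 0.764 to 0.958 against 1.03 to 2.25 CPM. The average over both antibodies was called by edgeR (log2 -0.67, SE 0.27, FDR = 0.41), as was the difference with isotype (log2 -0.84, SE 0.38, FDR = 0.368), but not that with anti–PD-1 (log2 -0.49, FDR = 0.737). The largest value was that of nonobese isotype replicate 1, and without that tumor neither call passed, with an isotype difference of -0.45 and an average of -0.47. The average was also lost without nonobese anti–PD-1 replicate 1 (-0.57) and obese isotype replicate 3 (-0.64). The isotype call was kept in 5 of 12 fits without a tumor, those without nonobese isotype replicates 2 and 3, nonobese anti–PD-1 replicates 1 and 3 and obese anti–PD-1 replicate 1. It also did not pass with DESeq2, the looser count filter, a block on the replicate number or only the 6 tumors compared.

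Ppard encodes the broadly expressed PPAR delta at chr17:28232700-28301474. Ppard stood at 118, 117 and 113 CPM in the nonobese isotype tumors, 125, 117 and 105 CPM in the nonobese anti–PD-1 tumors, 109, 88.8 and 102 CPM in the obese isotype tumors and 110.2, 109 and 108 CPM in the obese anti–PD-1 tumors. The obese isotype tumors lay below the nonobese isotype tumors by a small margin, a difference at the edge of the threshold by edgeR (log2 -0.22, SE 0.10, FDR = 0.376), which was kept in 5 of 12 fits without a tumor (nonobese anti–PD-1 replicates 1 and 3, obese anti–PD-1 replicate 1 and obese isotype replicates 1 and 3) and was as small as -0.15 without obese isotype replicate 2. The looser count filter, a block on the replicate number and a fit of only the 6 tumors also ended this call. With anti–PD-1 the diets overlapped. Skeletal muscle burns fatty acids under PPAR control, and its 10 markers summed to 35.6 to 418 CPM in the nonobese isotype tumors, 26.7 to 422 CPM in the nonobese anti–PD-1 tumors, 24.7 to 160.4 CPM in the obese isotype tumors and 59.1 to 679.9 CPM in the obese anti–PD-1 tumors, with every group wide. The part of muscle in these values was not tested.

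The oxysterol receptors, which sense cholesterol load, showed no call by edgeR in any comparison. Nr1h2 ran from 77.0 to 105 CPM over the 12 tumors. Nr1h3, the LXR form enriched in macrophages, liver and fat, stood at 0.514, 2.59 and 2.61 CPM in the nonobese isotype tumors, 0.813, 0.649 and 1.92 CPM in the nonobese anti–PD-1 tumors, 1.43, 1.68 and 1.05 CPM in the obese isotype tumors and 1.06, 2.66 and 3.56 CPM in the obese anti–PD-1 tumors. The groups overlapped in each comparison, with a log2 difference of -0.75 under anti–PD-1 in nonobese mice (FDR = 0.929) and 0.83 in obese mice (FDR = 0.787, edgeR). The macrophage gene Csf1r, the receptor for colony-stimulating factor 1, stood at 22.4, 67.1 and 55.5 CPM in the nonobese isotype tumors, 11.2, 15.7 and 16.5 CPM in the nonobese anti–PD-1 tumors, 27.2, 10.6 and 26.4 CPM in the obese isotype tumors and 18.0, 54.1 and 65.8 CPM in the obese anti–PD-1 tumors. The lowest tumor was the same for Nr1h3 and Csf1r in the nonobese isotype and obese anti–PD-1 groups and another one in the other two groups.

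Among 13 tested LXR targets, with Nr1h3 itself among them, Abcg1, a cholesterol exporter, was lower under anti–PD-1 in nonobese mice (log2 -0.72, FDR = 0.894) and higher in obese mice (log2 0.92, FDR = 0.428), and the responses differed (log2 1.63, SE 0.41, FDR = 0.13 by edgeR). In nonobese mice 2 targets were lower (background 3.59%) and 1 higher (1.64%), Pltp (-1.28), Abcg1 and Abcg4 (1.52), the last at 0.69 and not called without nonobese anti–PD-1 replicate 3. In obese mice Abcg1 was the single call. Abcg1 stood at 9.44, 13.4 and 10.4 CPM in the nonobese isotype tumors, 6.20, 7.48 and 6.51 CPM in the nonobese anti–PD-1 tumors, 7.28, 4.90 and 8.98 CPM in the obese isotype tumors and 7.47, 18.4 and 14.1 CPM in the obese anti–PD-1 tumors. The call in obese mice was lost at 0.62 without obese anti–PD-1 replicate 2. The call in nonobese mice was lost at -0.67 without nonobese anti–PD-1 replicate 1, -0.71 without nonobese anti–PD-1 replicate 3 and -0.55 without nonobese isotype replicate 2. Between diets with isotype, 1 of 13 was higher in obese mice (background 7.11%), Mylip, which marks the LDL receptor for breakdown (log2 0.79, FDR = 0.125), and 1 was lower (6.17%), Abcg1 (log2 -0.65, FDR = 0.373, edgeR). With anti–PD-1, 3 were higher in obese mice (5.71%), Abcg1 (0.99), Pltp (1.24) and Abca1, another cholesterol exporter (0.94), and 1 was lower (4.56%), Abcg4 (-1.84). Without nonobese anti–PD-1 replicate 3 the Abcg4 difference was -1.01 and not called. The Abcg1 call between diets with isotype was lost in 7 of 12 fits without a tumor. Without obese isotype replicate 2 that Abcg1 difference was -0.46. The difference between responses was above 0 for 2 of 13 targets (background 7.01%), Abcg1 and Pltp (1.85), by edgeR. It was below 0 for 2 (5.87%), Abcg4 (-2.12) and Mylip (-0.53). Those Abcg4 and Mylip calls were lost in 8 and 9 of 12 fits without a tumor. Of 10 macrophage markers, 9 were lower under anti–PD-1 in nonobese mice (background 3.59%, median log2 -1.08). With anti–PD-1, 9 of the 10 were higher in obese than nonobese mice (background 5.71%, median 1.34). The part of macrophages in the LXR target values was not tested. Nr1h4, the bile acid receptor FXR, was present at 8.06 to 14.1 CPM and was not called.

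Vdr was lower in obese mice that received the isotype antibody. Vdr encodes the vitamin D receptor at chr15:97854425-97910630 on the minus strand. Vdr stood at 2.09, 1.59 and 1.08 CPM in the nonobese isotype tumors, 1.22, 1.21 and 0.981 CPM in the nonobese anti–PD-1 tumors, 0.967, 0.210 and 0.907 CPM in the obese isotype tumors and 1.48, 1.48 and 1.00 CPM in the obese anti–PD-1 tumors. Obese isotype tumors lay below all nonobese isotype tumors and below all obese anti–PD-1 tumors, with obese isotype replicate 2 resting on 3 counts. The diet difference with isotype passed both thresholds of the study by edgeR (log2 -1.15, SE 0.46, FDR = 0.329). It was lost at -0.90 without nonobese isotype replicate 1, -1.16 without nonobese isotype replicate 2 and -0.77 without obese isotype replicate 2. Anti–PD-1 in obese mice gave a value that was not called (log2 0.87, FDR = 0.697, edgeR). Of 6 tested vitamin D targets, Hbegf, an EGF receptor ligand, was the 1 lower in obese mice with isotype (-0.63, background lower 6.17%) and the 1 higher under anti–PD-1 in obese mice (0.50, background higher 4.3%). DESeq2 called 2 lower with isotype. The Hbegf call under anti–PD-1 in obese mice was lost in 8 of 12 fits without a tumor. Without obese anti–PD-1 replicate 1 this response was 0.29. Spp1, the gene of osteopontin, and Slc8a1, a sodium-calcium exchanger, were the 2 higher in obese than nonobese mice with anti–PD-1 (0.88 and 1.05, background higher 5.71%). The Spp1 value was 0.54 without nonobese anti–PD-1 replicate 3 and 1.33 without nonobese anti–PD-1 replicate 1. Keratinocytes express Vdr strongly, and their 10 markers summed to 1.99 to 15.0 CPM in the nonobese isotype tumors, 1.25 to 1.86 CPM in the nonobese anti–PD-1 tumors, 0.560 to 1.81 CPM in the obese isotype tumors and 1.37 to 2.21 CPM in the obese anti–PD-1 tumors, with Krt1 and Krt10 at 0 in all 12 tumors.

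The thyroid hormone receptor Thra ran from 12.5 to 20.7 CPM and was not called by edgeR. Of 8 tested targets and deiodinases, 1 was higher in obese mice with anti–PD-1 (background 5.71%), and the other comparisons held no call by edgeR and 1 by DESeq2.

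The REV-ERB genes differed in opposite directions. Nr1d1 (chr11:98767932-98775333, minus strand) and Nr1d2 (chr14:18204054-18239127, minus strand) encode REV-ERB alpha and beta, which repress the clock activator gene Arntl and cycle over the day. Nr1d1 stood at 22.1, 21.9 and 18.7 CPM in the nonobese isotype tumors, 16.8, 18.6 and 13.6 CPM in the nonobese anti–PD-1 tumors, 16.7, 10.8 and 14.7 CPM in the obese isotype tumors and 17, 17.9 and 23.7 CPM in the obese anti–PD-1 tumors. The nonobese isotype tumors did not overlap with the obese isotype tumors below them, and the obese anti–PD-1 tumors lay above the obese isotype tumors. The diet difference with isotype was called by edgeR (log2 -0.57, SE 0.18, FDR = 0.266), kept in every alternative setting and all 12 fits without a tumor. Anti–PD-1 in obese mice raised Nr1d1 (log2 0.47, SE 0.19, FDR = 0.561), a call lost at 0.31 without obese anti–PD-1 replicate 3 and 0.33 without obese isotype replicate 2. In nonobese mice all 3 anti–PD-1 tumors lay below the isotype tumors, without a call (log2 -0.35, FDR = 0.929). The responses of the 2 diets differed (log2 0.82, SE 0.26, FDR = 0.214 by edgeR), and this was kept in every alternative setting that allows the test and in all 12 fits without a tumor.

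Nr1d2 stood at 26.3, 19.2 and 19.2 CPM in the nonobese isotype tumors, 21.7, 22.9 and 29.0 CPM in the nonobese anti–PD-1 tumors, 27.0, 30.6 and 30.03 CPM in the obese isotype tumors and 19.6, 23.8 and 25.2 CPM in the obese anti–PD-1 tumors. With isotype, the obese tumors were all above the nonobese tumors, by a margin of 26.3 against 27.0 CPM (log2 0.43, SE 0.16, FDR = 0.305 by edgeR). That call was lost at 0.34 without nonobese isotype replicate 2, 0.35 without nonobese isotype replicate 3, 0.39 without obese isotype replicate 2 and 0.40 without obese isotype replicate 3. Under anti–PD-1 in obese mice Nr1d2 was lower in all 3 tumors (log2 -0.35, SE 0.16, FDR = 0.654). This call was lost with DESeq2, RLE size factors, 10 counts required in every tumor, the current glmQLFit and a block on the replicate number. It was kept in 3 of 12 fits without a tumor (nonobese anti–PD-1 replicate 3, nonobese isotype replicate 1 and obese anti–PD-1 replicate 3). The responses differed by edgeR (log2 -0.53, SE 0.23, FDR = 0.342), but were not called at -0.36 without nonobese anti–PD-1 replicate 3, -0.44 without nonobese isotype replicate 2, -0.44 without nonobese isotype replicate 3, -0.41 without obese anti–PD-1 replicate 1, -0.49 without obese isotype replicate 2 and -0.50 without obese isotype replicate 3, nor with 10 counts required in every tumor. As a share of the pair, Nr1d1 made up 59.6%, 66.7% and 63.2% in the nonobese isotype tumors and 52.1%, 38.4% and 46.2% in the obese isotype tumors. Nr1d1 and Thra overlap tail to tail on opposite strands over 263 exon bases, 8.55% of the exons of Nr1d1, and Thra showed no call.

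The windows before the start sites of the pair are shown because their genes went in opposite directions. They are from RefSeq (GRCm38.p6), 250 bases 5′ to 3′ on the minus strand, at chr11:98775378-98775627 and chr14:18239107-18239356. Capitals mark the receptor half-site AGGTCA.

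Nr1d1: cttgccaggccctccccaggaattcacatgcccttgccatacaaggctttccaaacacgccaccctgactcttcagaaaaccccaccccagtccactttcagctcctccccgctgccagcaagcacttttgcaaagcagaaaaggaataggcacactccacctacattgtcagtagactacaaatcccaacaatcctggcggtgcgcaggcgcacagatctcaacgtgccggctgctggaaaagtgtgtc
Nr1d2: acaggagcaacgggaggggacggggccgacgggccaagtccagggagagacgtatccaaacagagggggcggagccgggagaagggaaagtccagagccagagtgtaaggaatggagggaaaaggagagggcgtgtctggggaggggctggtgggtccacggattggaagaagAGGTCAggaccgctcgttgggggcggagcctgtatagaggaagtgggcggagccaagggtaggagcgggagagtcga

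On both strands, AGGTCA was found in Nr1d2, 77 to 72 bases before the start site, and had no match in the window of Nr1d1. It was present in 14.0% of all windows and in those of 10 receptors. The E-box CACGTG of clock activators, in 6.02% of windows, had no match in either.

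Of 14 tested clock genes around these receptors, 1 was higher (background 7.11%) and 2 lower (6.17%) in obese mice with isotype by edgeR, the output factors Tef (0.21) and Hlf (-0.96) and the repressor Ciart, listed in the table as Gm129 (-1.11). The Tef call was lost in 10 of 12 fits without a tumor and the Ciart call in 5. Without obese isotype replicate 1, Tef was at 0.11 and not called, and Ciart was at -1.97. Under anti–PD-1 in obese mice 1 was lower (background 3.27%), Clock (log2 -0.36, FDR = 0.486), and DESeq2 called 2 higher and 1 lower. The Clock value was -0.23 and not called without obese isotype replicate 3. With anti–PD-1, 3 were lower in obese mice (background 4.56%), Per3 (-0.93), Ciart (-1.24) and Cry1 (-0.45). Without nonobese anti–PD-1 replicate 3, Per3 was at -0.55 and Cry1 at -0.29, and neither was called. This Cry1 call was lost in 4 of 12 fits without a tumor. Averaged over antibodies, 4 were lower (background 5.19%), Ciart (-1.17), Hlf (-0.58), Cry1 (-0.36) and Per3 (-0.56). In the average the Per3 call was lost in 6 of 12 fits without a tumor and the Hlf call in 1. Arntl, the gene repressed by REV-ERB, ran from 9.43 to 13.8 CPM and was not called with isotype (log2 0.18, FDR = 0.642) or under anti–PD-1 in obese mice (log2 -0.12, FDR = 0.9, edgeR). Rora, an activator that binds the same elements, ran from 3.06 to 8.25 CPM without a call. The hour of collection of each tumor was not given in the sources used here, and its part was not tested.

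Among the receptors for sex steroids, Esr1 was detected at a low level, Esr2 was below the detection rule with 4 counts over all tumors, and Pgr was at 0. Esr1 encodes estrogen receptor alpha at chr10:4611593-5005614 on the plus strand. Esr1 stood at 2.41, 3.26 and 3.35 CPM in the nonobese isotype tumors, 2.54, 3.49 and 3.39 CPM in the nonobese anti–PD-1 tumors, 3.07, 2.10 and 3.49 CPM in the obese isotype tumors and 3.88, 5.12 and 3.56 CPM in the obese anti–PD-1 tumors, from 30 to 113 counts per tumor. The obese anti–PD-1 tumors were above the obese isotype tumors and above the nonobese anti–PD-1 tumors, with nearest tumors at 3.56 against 3.49 CPM in both cases. Neither difference was called by edgeR (log2 0.53, SE 0.28, FDR = 0.697 against obese isotype and log2 0.41, FDR = 0.676 against nonobese anti–PD-1). Without obese isotype replicate 3 the first was 0.70 and passed the unadjusted threshold. The anti–PD-1 response in nonobese mice was 0.07 and the diet difference with isotype -0.05 on the log2 scale, and both changed sign when single tumors were left out. The response of the 2 diets to anti–PD-1 was not shown to differ (log2 0.46, SE 0.39, FDR = 0.639 by edgeR).

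Of 16 known estrogen targets, 11 were tested. Myc, a growth-promoting transcription factor, was lower in obese mice with anti–PD-1 (-0.33) and in the average of both antibodies (-0.29), as was the cyclin gene Ccnd1 in the average (-0.26). Of the 11, edgeR called 1 lower in obese mice with isotype (background 6.17%), 1 lower with anti–PD-1 (4.56%) and 2 lower in the average (5.19%), and DESeq2 called 2 lower with isotype. Under anti–PD-1 in obese mice 1 was higher (4.3%), and the difference between responses was above 0 for 1 (7.01%). Anti–PD-1 in nonobese mice gave no call among the 11 by edgeR or DESeq2. The related receptor Esrra, an orphan receptor of mitochondrial energy metabolism, ran from 29.2 to 47.5 CPM and was not called, and its 14 tested targets, with Esrra itself among them, held no call by edgeR or by DESeq2 in any of the 6 comparisons.

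Nr3c1, the glucocorticoid receptor, stood at 31.7, 27.4 and 28.3 CPM in the nonobese isotype tumors, 31.5, 30.6 and 27.4 CPM in the nonobese anti–PD-1 tumors, 31.5, 32.2 and 37.8 CPM in the obese isotype tumors and 30.4, 33.2 and 32.8 CPM in the obese anti–PD-1 tumors. It was highest in obese isotype replicate 3 and was not called by edgeR between diets (log2 0.22, FDR = 0.418 with isotype). Of 13 tested glucocorticoid targets, the phosphatase gene Dusp1 (0.46) and the NF-κB inhibitor gene Nfkbia (0.38) were higher in obese mice with isotype (2 of 13, background higher 7.11%). Nfkbia was also higher in obese mice with anti–PD-1 (0.35, and 0.34 but not called with the replicate number as a block in the fit), and neither antibody comparison held a call by edgeR, with 1 by DESeq2 in obese mice. Nr3c2, the mineralocorticoid receptor, ran from 0.152 to 1.09 CPM. Among 12 chaperones of steroid receptors, the immunophilin gene Fkbp4 was the single call by edgeR, higher in obese mice with isotype (log2 0.23, FDR = 0.373), where 7.11% of all tested genes were called higher. The Fkbp4 call was lost in 9 of 12 fits without a tumor.

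Of the NR4A receptors, Nr4a3 was lower in obese mice and Nr4a1 and Nr4a2 were not called. Nr4a3 (chr4:48045153-48086447, plus strand) stood at 115, 95.6 and 92.7 CPM in the nonobese isotype tumors, 108, 118 and 62.6 CPM in the nonobese anti–PD-1 tumors, 75.2, 51.3 and 66.5 CPM in the obese isotype tumors and 80.1, 88.1 and 74.9 CPM in the obese anti–PD-1 tumors. The obese isotype tumors lay below all nonobese isotype tumors, while nonobese anti–PD-1 replicate 3, at 62.6 CPM, lay among the obese isotype values. The diet difference was called by edgeR with isotype (log2 -0.65, SE 0.20, FDR = 0.25) and in the average over both antibodies (log2 -0.45, SE 0.14, FDR = 0.287). Both were kept in every alternative setting and in all 12 fits without a tumor. With anti–PD-1 alone it was not called (log2 -0.25, FDR = 0.754, edgeR). Nr4a1 stood at 85.2, 82.8 and 76.2 CPM in the nonobese isotype tumors, 93.8, 87.3 and 77.4 CPM in the nonobese anti–PD-1 tumors, 82.9, 84.6 and 63.6 CPM in the obese isotype tumors and 94.9, 79.8 and 67.3 CPM in the obese anti–PD-1 tumors, with overlapping groups (log2 -0.08, FDR = 0.826 between diets with isotype, edgeR). Nr4a2 ran from 1.65 to 3.91 CPM. In T cells the NR4A genes are known to rise with antigen signals, and the 9 of 10 T and NK cell markers found in the table summed to 1.83 to 4.35 CPM in the nonobese isotype tumors, 0.508 to 2.14 CPM in the nonobese anti–PD-1 tumors, 1.47 to 2.34 CPM in the obese isotype tumors and 5.01 to 19.9 CPM in the obese anti–PD-1 tumors. The part of such cells in the Nr4a3 values was not tested.

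The window before the start site of Nr4a3 is shown for its cAMP-type half-sites TGACG, the element by which this group is known to be induced. It is from RefSeq (GRCm38.p6), 250 bases 5′ to 3′ on the plus strand at chr4:48045055-48045304, with the half-site on either strand in capitals.

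Nr4a3: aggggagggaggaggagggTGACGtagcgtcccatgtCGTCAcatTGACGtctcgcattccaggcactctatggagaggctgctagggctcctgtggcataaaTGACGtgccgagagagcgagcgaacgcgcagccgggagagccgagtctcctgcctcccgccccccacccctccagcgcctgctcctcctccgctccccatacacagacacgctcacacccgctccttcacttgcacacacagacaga

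The 4 matches lie 231 to 227, 213 to 209, 205 to 201 and 147 to 143 bases before the start site. TGACG was in 17.8% of all RefSeq windows and in those of 13 receptors, and 4 or more matches were in 45 windows (0.137%). Windows of Nr4a1 and Nr4a2 also held 4 matches each. The full palindrome TGACGTCA, which overlaps the half-site, was in 1.55% of windows and in none of these 3.

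Immediate early genes that are commonly induced with the NR4A group were mostly not lower where Nr4a3 was. Of 16 tested, 2 were higher (background 7.11%) and 1 lower (6.17%) in obese mice with isotype by edgeR, Atf3 (0.64), Dusp1 (0.46) and Klf2 (-0.80). Averaged over antibodies, 6 were higher and 0 lower by edgeR and by DESeq2 (background 5.21% and 5.19%), with the smallest P for Atf3 (0.44), Fos (0.35), Dusp1 (0.31) and Jun (0.29). Atf3 and Fos were kept in all 12 fits without a tumor. Dusp1 was lost in 2 of these fits, Jun in 8 and the genes not named in 7 or 8. The list median of the diet average was 0.22, against 0.00 for all genes. Klf2 was also lower under anti–PD-1 in nonobese mice (-0.70).

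**Figure D5:**
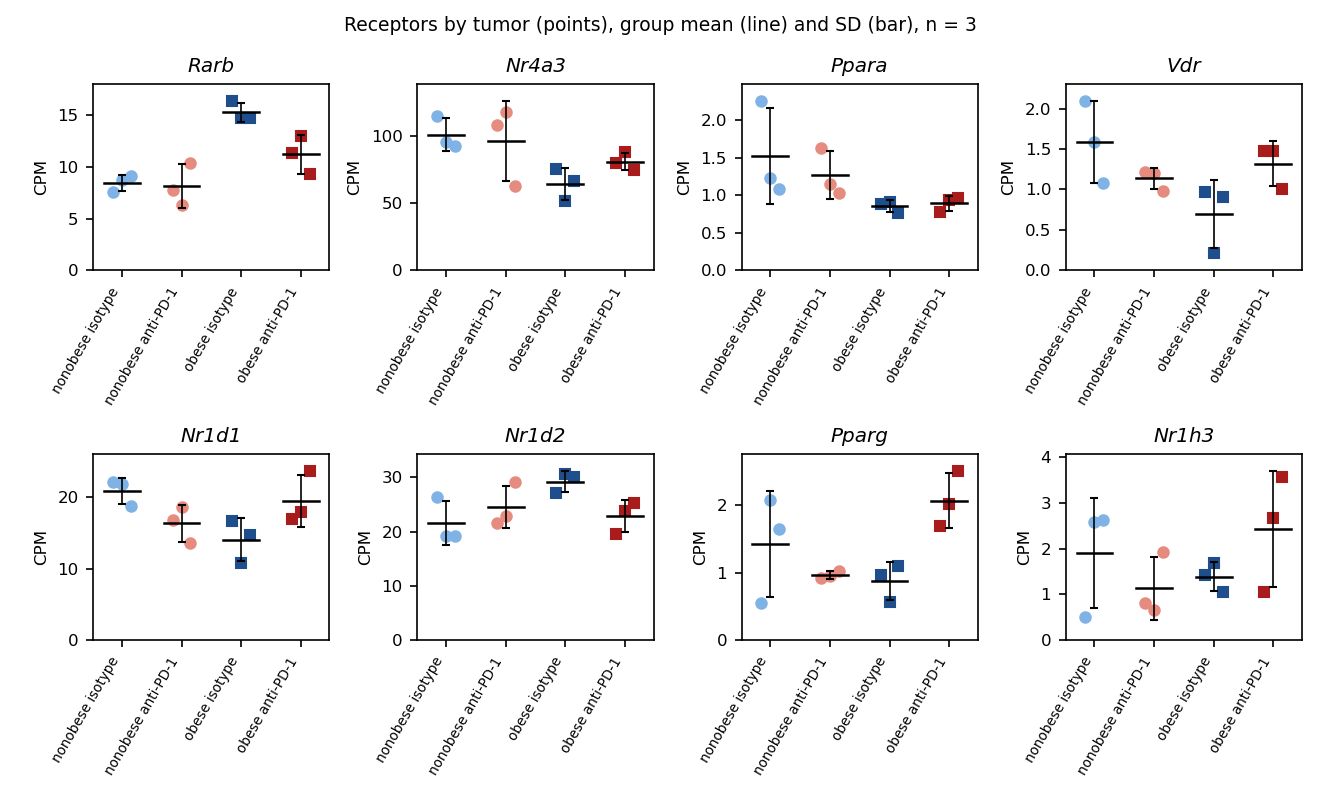
CPM (vertical axes, from 0) of 8 receptors in each tumor, with the group mean as a line and SD as a bar (n = 3). The obese isotype group has the highest mean for Rarb and Nr1d2 and the lowest for Nr4a3, Vdr and Nr1d1, and the obese anti–PD-1 group has the highest for Pparg.

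The orphan receptors of the NR2, NR5 and NR6 groups showed no call by edgeR in any comparison. Nr2c1 and Nr2c2, known as TR2 and TR4, ran from 27.2 to 40.4 and from 77.3 to 126 CPM. Nr2c2 did not overlap between diets with isotype, all 3 obese tumors being higher (log2 0.29, FDR = 0.421, edgeR), and 30.7% of its exon bases lie opposite Mrps25. Nr2f1, which with Nr2f2 encodes the COUP-TF factors of development, also did not overlap there, at 7.78 to 8.86 CPM in nonobese and 9.58 to 10.1 CPM in obese isotype tumors (log2 0.20, FDR = 0.646, edgeR). Under anti–PD-1 in obese mice Nr2f1 was below all obese isotype tumors without a call (log2 -0.36, FDR = 0.695). Nr2f6 shares 54.4% of its exon bases with Ocel1 on the opposite strand. Nr5a1, the steroidogenic factor SF-1, stood at 19.2, 14.9 and 13.2 CPM in the nonobese isotype tumors, 24.4, 22.2 and 7.40 CPM in the nonobese anti–PD-1 tumors, 16.5, 22.9 and 23.1 CPM in the obese isotype tumors and 20.1, 24.2 and 27.7 CPM in the obese anti–PD-1 tumors. Its value in nonobese anti–PD-1 replicate 3, 7.40 CPM, was the lowest of the 12 tumors. The neighbouring gene Nr6a1, the germ cell nuclear factor, lies on the same strand of chromosome 2 and was highest in that same tumor, at 6.24 CPM against 1.82 to 3.53 CPM in the other 11.

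Coregulators that receptors recruit moved for a few genes. Of 10 corepressors, 1 was higher in obese mice with isotype by edgeR (background 7.11%), Tbl1xr1 (0.51), a subunit of the NCoR complex, and 1 was lower (6.17%). Bcl6, a repressor known from B and T cells, was higher in obese mice with anti–PD-1 (log2 0.88, FDR = 0.132, edgeR). Of 18 coactivators, Kat2b, an acetyltransferase, was higher in obese mice with isotype (0.47), and the PGC-1 family genes Pprc1 (-0.50) and Ppargc1b (-0.63) were lower, which makes 1 of 18 higher (background 7.11%) and 2 of 18 lower (6.17%), with 4 lower by DESeq2. Without obese isotype replicate 2 the Ppargc1b difference was -0.46 and no longer passed. Ppargc1b stood at 8.86, 10.0 and 10.2 CPM in the nonobese isotype tumors, 10.3, 8.35 and 8.61 CPM in the nonobese anti–PD-1 tumors, 7.99, 4.55 and 6.11 CPM in the obese isotype tumors and 4.02, 6.64 and 7.03 CPM in the obese anti–PD-1 tumors. All 6 obese tumors lay below all 6 nonobese tumors (log2 -0.62 averaged over antibodies, FDR = 0.217 by edgeR), and this call was kept in all 12 fits without a tumor. Anti–PD-1 gave no call among the coactivators in either diet by edgeR or by DESeq2. Across all lists of targets and partners, the edgeR fits made 133 calls of genes other than the receptors, each a gene in a comparison. Of these, 66 were kept in every fit without a tumor, 67 were lost in at least 1, and none changed sign. The number lost ran from 17 without obese anti–PD-1 replicate 1 to 34 without nonobese isotype replicate 2.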

How the data were processed

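Poly(A) RNA of frozen bulk B16-F10 tumors had been sequenced from stranded libraries. Per the labels and the study's methods, the authors checked reads with FastQC (0.11.5), mapped them to mm10 with STAR (2.7.0f) and counted reads per gene symbol with HTSeq (0.9.1). The deposited values were raw counts in 1 table. The strand setting and gene annotation of the counting were not given in the sources used here. All 12 columns matched a sample by name, and 0 columns of other samples were present. Per-tumor totals of 14022929 to 33871843 set the precision of low receptors, and count floors cover counting error only.

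The 47 members, the gene lists and the tests were chosen with earlier results of these data known. All rows were fitted together in R (4.3.3) with edgeR (4.0.16): filterByExpr, TMM scaling, 4 group means, the legacy form of glmQLFit and glmQLFTest, with 8 residual degrees of freedom and Benjamini-Hochberg adjustment over 13095 genes. The authors had used edgeR (3.28.1) with a fold change above 2 and P below 0.05. Fits were tested on simulated data. CPM per kilobase used merged exons of GENCODE M21 (GRCm38). Promoter windows came from RefSeq (GRCm38.p6), with none for Nr3c1, Thra, Nr5a1 and Hnf4g. Figures used Python (3.11.15) and matplotlib (3.10.9). Alternatives were DESeq2 (1.42.0), RLE size factors, both a looser and a stricter count filter, the current glmQLFit, a replicate block, only the 6 tumors compared, and leaving out each tumor. Same-numbered tumors of the 2 anti–PD-1 groups had correlations of 0.443, 0.111 and 0.351 over genes, all above 0.1. Unlike numbers of these groups ran from -0.443 to 0.119, and nonobese replicate 2 stood at 0.119 with obese replicate 3. The numbers were taken as pairs there from these same data, since the labels do not say what a number marks.

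Receptors were named when P was below 0.05 in any comparison, when among the 10 highest, or as sex steroid receptors. From each list up to 4 genes with the smallest P below 0.05 were named per comparison. Trac, a T cell marker, was not matched in the table, and a few genes are listed under older symbols. Some genes of the lists are not reported here.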

Additional observations from a re-analysis of the deposited data

Results flagged for a closer look

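In 3 of 30 tested receptors (10.0%) the interaction term of edgeR had an unadjusted P below 0.05, a share below the 12.9% of all tested genes. The response in obese minus that in nonobese mice, on the log2 scale, by edgeR was 1.78 for Pparg (FDR = 0.271), 0.82 for Nr1d1 (FDR = 0.214) and -0.53 for Nr1d2 (FDR = 0.342). Of 12 fits without a tumor, the call was kept in 11 for Pparg, 12 for Nr1d1 and 6 for Nr1d2. In Pparg all 3 obese tumors rose above their isotype group and the nonobese tumors did not separate. In Nr1d1 the groups did not overlap in either diet, lower after anti–PD-1 in nonobese mice and higher in obese mice. In Nr1d2 only the obese groups did not overlap.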

How the results depend on the processing

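Counts of receptors with a P below 0.05 depended on the filter and on single tumors. Requiring 10 counts in every tumor, which drops Pparg and Vdr from the test, changed the count from 4 to 1 for anti–PD-1 in obese mice, from 2 to 1 for diet with anti–PD-1 and from 3 to 1 for the interaction, and left 0 with the added fold change in these comparisons and in diet with isotype. The looser filter of 1 count in all tumors together gave 1 receptor for anti–PD-1 in nonobese mice by either rule. Fitting only the 6 tumors compared gave 1 there and 1 for diet with anti–PD-1. The current glmQLFit gave 2 for the interaction with the added fold change. The cause was not tested for the last 3.

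Leaving out single tumors gave counts of 0 to 4 (nonobese anti–PD-1), 0 to 5 (obese anti–PD-1), 3 to 8 (diet with isotype), 0 to 6 (diet with anti–PD-1), 1 to 4 (interaction) and 3 to 6 (average). With the added fold change they were 0 to 1, 0 to 2, 0 to 2, 0 to 2, 0 to 2 and 0. For Esr1 the nonobese response turned from 0.07 to -0.015, -0.0044 or -0.068 (range -0.068 to 0.20) and the isotype diet difference from -0.05 to 0.0062, 0.018 or 0.12 (range -0.22 to 0.12), and neither was called. DESeq2 and RLE size factors moved no count of receptors at an unadjusted P below 0.05 by over 1.5 times. At an FDR below 0.05 DESeq2 called Rarb for diet with isotype and in the average, where edgeR called no receptor. The 2 detection rules both gave 33 receptors.

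The replicate numbers of the labels were checked for pairing. Over 18 pairs of tumors with the same number the deviations from group means had a mean correlation of 0.133 (from -0.264 to 0.563), against -0.0623 over 36 other pairs, and 6 of 12 tumors correlated best with their own number. In the comparisons other than diet with anti–PD-1, at least 1 pair stood below 0.1, and there the numbers were not taken to pair the tumors. For diet with anti–PD-1, with the numbers taken as pairs, the block kept the calls of Pparg and Rarb. The pairs were chosen from these same data, so the block is not separate support for those calls. With the replicate block the count for anti–PD-1 in obese mice was 2, and that for diet with isotype was 5, with Nr1d2 and Rarb no longer called in the first and Ppara and Ppard in the second.

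Among the lists of targets and partners, DESeq2 moved some counts by 1.5 times or more (edgeR in parentheses). For diet with isotype it called 4 coactivators (2), 2 vitamin D targets (1), 2 estrogen targets (1), 1 thyroid hormone target (0) and 3 clock genes (2) lower, and 0 clock genes (1) higher. Under anti–PD-1 in obese mice it called 2 clock genes, 1 chaperone and 1 glucocorticoid target higher (0 each). It called 1 chaperone (0) higher for diet with anti–PD-1 and 2 (0) in the average. Also higher were 3 immediate early genes (2) for diet with anti–PD-1 and 2 retinoic acid targets (3) in the average. In the interaction it called 1 coactivator (0) above 0, and 1 glucocorticoid target (0) and 1 LXR target (2) below.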
